A study of Mus musculus with 22 samples.

Results

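The 43 genes described here encode proteins that fold, oxidise, inspect and discard new proteins in the endoplasmic reticulum (ER), together with the sensors of the unfolded protein response. They were taken by name from a list and not by a threshold on their values, but the list was drawn up with earlier results of these data known. All 43 were found among the 52327 genes of the deposited table and among the 14064 genes that had enough counts to be tested. The RNA came from flow-sorted pancreatic β-cells of 22 male mice, 3 months old and on a mixed background. Every mouse, control mice included, carried GluDTR+, SstDTR htz and PpyDTR htz, which are diphtheria toxin receptor alleles named for the glucagon, somatostatin and pancreatic polypeptide genes. Mice given diphtheria toxin (DT) lose the cells that carry the receptor and keep islets of β-cells, and the study asks how β-cells work without their islet neighbours. The cells were collected 1 month after the ablation, from mice that had gone 8 h without food or had then been refed for 2 h. There were 5 control and 6 DT mice in the fasted state and likewise 5 control and 6 DT mice in the refed state, and what control mice were injected with is not given in the sources used here.

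Proteins bound for secretion enter the ER unfolded. BiP (Hspa5), GRP94 (Hsp90b1) and their J-domain partners hold them, protein disulphide isomerases form and shuffle their disulphide bonds, the lectins calnexin and calreticulin hold glycoproteins, and chains that fail to fold are carried back to the cytosol for ER-associated degradation. When unfolded chains accumulate, the sensors IRE1 (Ern1), PERK (Eif2ak3) and ATF6 start the unfolded protein response, in which cleaved ATF6 and the protein from spliced Xbp1 mRNA bind ER stress response elements in the promoters of chaperone genes while PERK slows translation. β-cells make proinsulin, which has disulphide bonds, in large amounts and raise its translation when glucose rises, so this machinery is heavily used in them. Counts per gene do not separate spliced from unspliced Xbp1 mRNA, nor do they measure cleaved ATF6 or phosphorylated PERK.

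The total count per library ran from 16584117 to 24988880. Correlations of log2 levels between libraries lay between 0.847 and 0.967, and 0 pairs were identical. The α-cell transcript Gcg had medians of 77.4 (control) and 0.146 (DT) in fasted mice and of 158 and 0.461 in refed mice, in CPM, the count scaled to a fixed library total. Of the refed DT mice, mouse 13 had 69.4% of its counts in the insulin genes and mouse 20 had 1.59% mitochondrial counts, each the highest of all libraries, so results are also given without both. Transcripts of acinar cells, the exocrine cells around islets, were present at very different levels, and their summed level over 22 acinar markers ran from 185 to 46110 CPM. These are bulk samples of sorted cells, so fewer cells of a type and less RNA per cell cannot be told apart.

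Promoters of several ER genes carry the sequence that ATF6 is known to bind. The ER stress response element (ERSE) was searched on both strands as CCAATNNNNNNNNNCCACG, where N is any base, in the RefSeq windows (GRCm38.p6) that reach from 250 bases before to 50 bases after each gene's start. Windows were found for 37 of the 43 members, and 9 of these (24.3%) held the element, against 37 of 27025 genes with a window (0.137%). This share is a description, since the element was first described in promoters of genes that are members, Hspa5, Hsp90b1 and Calr among them. The 6 member promoters shown were those with an ERSE and the smallest p in the feeding effect described next. Each is the stretch of 250 bases before the start, read 5′ to 3′ on the gene's own strand, and the capitals mark the fixed letters of the ERSE.
Creld2 chr15:88819396-88819645 (+ strand): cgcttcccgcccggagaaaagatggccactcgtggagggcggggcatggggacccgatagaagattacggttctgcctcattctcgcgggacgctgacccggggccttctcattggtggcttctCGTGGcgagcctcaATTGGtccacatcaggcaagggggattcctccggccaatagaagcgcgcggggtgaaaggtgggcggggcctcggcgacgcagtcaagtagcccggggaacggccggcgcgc
Pdia6 chr12:17266339-17266588 (+ strand): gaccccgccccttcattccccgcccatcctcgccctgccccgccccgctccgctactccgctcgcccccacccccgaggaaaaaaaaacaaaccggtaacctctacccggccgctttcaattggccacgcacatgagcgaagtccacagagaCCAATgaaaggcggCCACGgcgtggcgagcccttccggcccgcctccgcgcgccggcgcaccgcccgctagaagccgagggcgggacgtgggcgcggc
Dnajc3 chr14:118937682-118937931 (+ strand): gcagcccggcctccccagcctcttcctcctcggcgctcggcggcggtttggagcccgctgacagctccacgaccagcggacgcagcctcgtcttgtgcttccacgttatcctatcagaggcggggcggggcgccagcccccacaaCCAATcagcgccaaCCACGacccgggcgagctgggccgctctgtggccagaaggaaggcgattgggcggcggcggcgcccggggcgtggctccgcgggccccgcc
Calr chr8:84846932-84847181 (- strand): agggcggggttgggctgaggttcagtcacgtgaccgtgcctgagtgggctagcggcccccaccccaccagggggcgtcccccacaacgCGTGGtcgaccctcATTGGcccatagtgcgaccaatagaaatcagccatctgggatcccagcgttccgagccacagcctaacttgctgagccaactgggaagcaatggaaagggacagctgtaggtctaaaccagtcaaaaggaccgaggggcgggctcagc
Hspa5 chr2:34771840-34772089 (+ strand): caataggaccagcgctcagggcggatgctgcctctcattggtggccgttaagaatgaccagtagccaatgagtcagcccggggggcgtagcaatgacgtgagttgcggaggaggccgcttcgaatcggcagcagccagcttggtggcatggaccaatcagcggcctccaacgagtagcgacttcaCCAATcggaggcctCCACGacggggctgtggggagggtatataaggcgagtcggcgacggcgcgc
Hsp90b1 chr10:86705445-86705694 (- strand): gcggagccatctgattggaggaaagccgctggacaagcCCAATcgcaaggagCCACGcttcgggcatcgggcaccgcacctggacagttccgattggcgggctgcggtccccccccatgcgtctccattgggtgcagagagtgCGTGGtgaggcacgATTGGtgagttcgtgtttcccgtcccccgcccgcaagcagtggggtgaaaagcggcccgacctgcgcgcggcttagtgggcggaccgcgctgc

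In Hspa5 the element lay closest to the start among these, at bases -65 to -47, while in Calr it lay at -162 to -144 and on the opposite strand. Hsp90b1 was the only member with 2 copies, at -212 to -194 and at -107 to -89, in opposite orientations. Pdia6 and Dnajc3 carried it in the gene's orientation at -98 to -80 and -105 to -87, and Creld2 in the opposite orientation at -126 to -108. The other 3 members with the element were Canx, Derl3 and Syvn1. Genes that rose on refeeding were found among members with and without an ERSE in the window. Averaged over control and DT mice, 7 of the 9 members with the element were higher after refeeding, with a median log2 fold change of 0.56, as were 15 of the 28 without it (median 0.42) and 4 of the 6 with no window (median 0.71), against 17.2% of all tested genes.

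**Figure D1:**
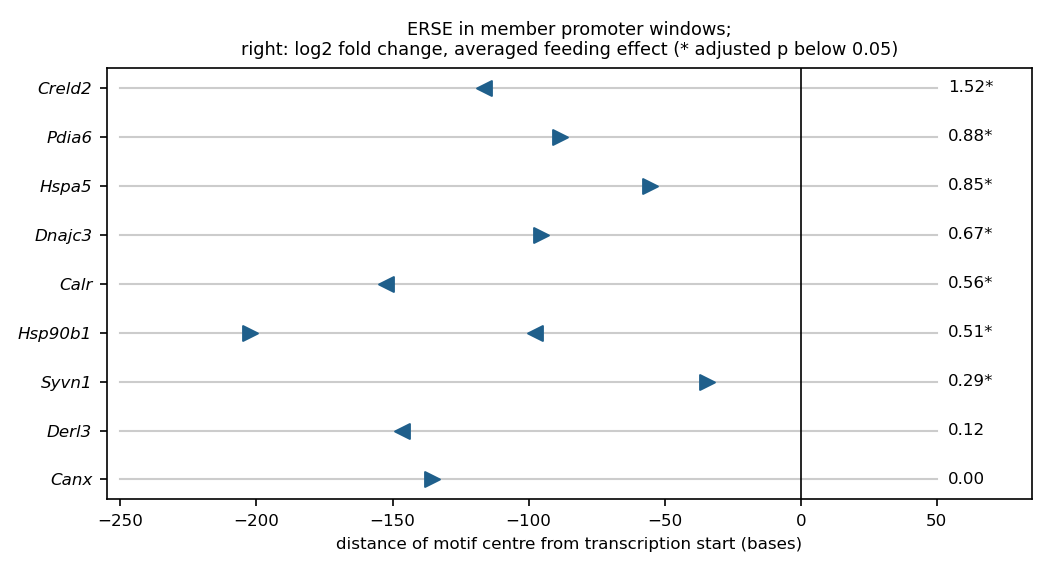
Position of each ERSE relative to the gene's start (x axis, bases) in the 9 member promoters that hold one, with the log2 fold change of the averaged feeding effect printed beside each gene; arrowheads give the element's orientation. The elements lie between bases -212 and -26, and Creld2 (1.52) and Canx (0.00) stand at the ends of the range of response.

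ER folding genes were higher in β-cells of refed than of fasted mice, in control and in DT mice. Of the 43 members, 23 rose and 0 fell in control mice (adjusted p under 0.05 in edgeR's quasi-likelihood test), where 10.9% of all tested genes rose and 12.3% fell. The median log2 fold change was 0.58 over the members and -0.04 over all tested genes. In DT mice 16 members rose and 1 (Derl1) fell, against 10.8% and 13.5% of all tested genes, and the medians were 0.37 and -0.06. The control and DT comparisons share no mice, and 15 members rose in both, which is 65.2% of those that rose in control and 93.75% of those that rose in DT mice. Over all tested genes 985 rose in both, which is 64.1% of those that rose in control and 64.8% of those that rose in DT mice, and the difference from the members was not tested. Averaged over control and DT mice, 26 members rose and 0 fell, against 17.2% and 21.7% of all tested genes. Groups did not overlap, with every refed mouse above every fasted mouse, for 23 members in control mice (10.4% of all tested genes) and for 5 members, Dnajb11, Dnajc3, Erp29, Creld2 and Ppib, in DT mice (4.0% of all tested genes). Acinar markers moved with feeding as well: their summed level had medians of 5949 CPM when fasted and 14805 CPM when refed in control mice, and of 3070 and 11479 CPM in DT mice, although 1 of 20 tested acinar markers was called in either comparison. With the acinar level as a covariate 20 members rose in control mice and 16 in DT mice.

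**Figure D2:**
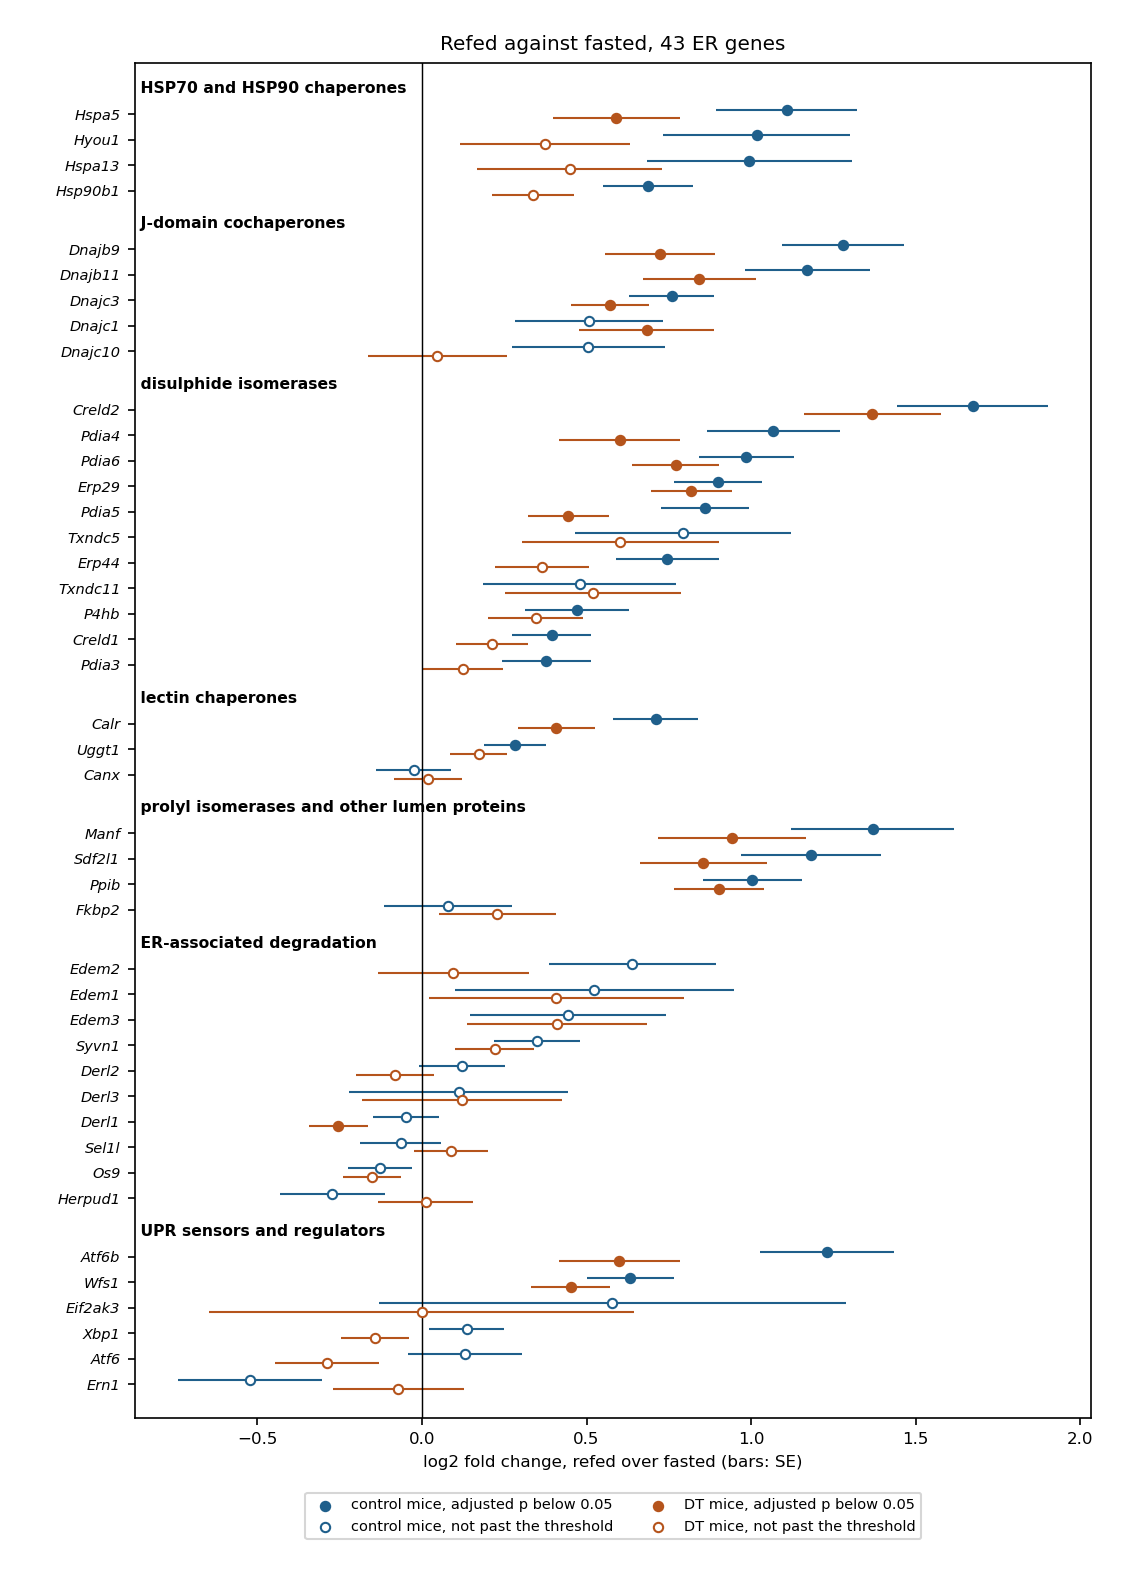
Log2 fold change of refed against fasted mice (x axis) for each of the 43 members, grouped by role, in control and in DT mice; points are edgeR estimates, bars ± 1 standard error, and filled points have an adjusted p under 0.05. Chaperone, disulphide isomerase and lumen genes lie mostly right of 0, up to 1.67 for Creld2 in control mice. In the degradation role single estimates in control mice run from -0.27 (Herpud1) to 0.64 (Edem2), with none past the threshold.

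Among the HSP70 and HSP90 chaperones, all 4 rose in control mice and 1, Hspa5, rose in DT mice. Hspa5 (chromosome 2, 34772090 to 34776529), which encodes BiP, was at 888, 926, 928, 998 and 1517 CPM in fasted control mice and at 1879, 2217, 2376, 2399 and 2459 CPM in refed control mice. In DT mice its lowest, median and highest levels were 841, 1225 and 1765 CPM when fasted and 1030, 2024 and 2707 CPM when refed. The control groups were apart, while refed DT mouse 13 (1030 CPM) sat among the fasted DT mice. Its log2 fold change was 1.11 ± 0.21 (SE, edgeR adjusted p = 0.000698) in control mice, a 2.16-fold rise, and 0.59 ± 0.19 (adjusted p = 0.0288) in DT mice. The DT call for Hspa5 held in 16 of 22 fits with 1 library left out. Hsp90b1 (chromosome 10, 86690841 to 86705444), which encodes GRP94, was at 407, 420, 459, 487 and 552 CPM in fasted and at 658, 717, 772, 792 and 804 CPM in refed control mice. It rose by a log2 fold change of 0.69 ± 0.14 (edgeR adjusted p = 0.000954) in control mice and was at 0.34 ± 0.12 (adjusted p = 0.0519) in DT mice. Hyou1, a nucleotide exchange factor for BiP, rose in control mice by 1.02 ± 0.28 on the log2 scale and was at 0.37 ± 0.26 in DT mice. Hspa13, a microsomal member of the HSP70 family, rose in control mice by 0.99 ± 0.31, a call that held in 18 of 22 fits with 1 library left out.

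J-domain proteins deliver clients to BiP and stimulate its ATPase, and 3 of 5 rose in control and 4 of 5 in DT mice. Dnajb9, whose product ERdj4 is a strong target of spliced Xbp1 and holds IRE1 in check, was at 80.1, 84.0, 99.3, 120 and 138 CPM in fasted control and at 205, 236, 256, 282 and 288 CPM in refed control mice. Its lowest, median and highest levels were 82.8, 125 and 159 CPM in fasted DT and 149, 214 and 273 CPM in refed DT mice. It rose by 1.28 ± 0.19 on the log2 scale (edgeR adjusted p = 4.73e-05) in control mice, with no overlap, and by 0.72 ± 0.17 (adjusted p = 0.00319) in DT mice, where refed mouse 15 (149 CPM) lay below the highest fasted mouse. Dnajb11, which binds unfolded chains directly as ERdj3, ran from 55.0 to 110 CPM in fasted and 138 to 171 CPM in refed control mice, and from 54.2 to 116 and 120 to 199 CPM in DT mice. Its log2 fold changes were 1.17 ± 0.19 and 0.84 ± 0.17 in control and DT mice, and neither pair of groups overlapped. Dnajc3, whose product p58IPK is a lumenal BiP partner, ran from 210 to 316 CPM in fasted and 348 to 467 CPM in refed control mice, and from 185 to 277 and 286 to 426 CPM in DT mice. It rose by 0.76 ± 0.13 and 0.57 ± 0.12 on the log2 scale. Dnajc1 was called in DT mice (0.68 ± 0.21, adjusted p = 0.0184 in edgeR) and was at 0.51 ± 0.22 (adjusted p = 0.11) in control mice. Its DT call held in 22 of 22 fits with 1 library left out but was lost when only the compared groups were fitted. Fasted DT mice 7 and 8 were low for Dnajc1, at 18.8 and 12.9 CPM, with the other fasted DT mice from 33.9 to 39.5 CPM. Fits with 1 library left out never drop both of these mice, so they cannot show whether the call depends on the pair. Dnajc10, a J-domain protein that reduces disulphides, was at 0.51 ± 0.23 and 0.05 ± 0.21 and was called in neither.

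Disulphide isomerases and thioredoxin-like proteins were the largest role, and 9 of 11 rose in control mice, 5 in DT mice and 10 in the average. Creld2 (chromosome 15, 88819646 to 88826681), a lumenal protein with EGF-like repeats that is induced by ER stress, had the largest rise of all members. It was at 45.9, 46.6, 48.6, 62.4 and 69.0 CPM in fasted control mice and at 130, 173, 180, 191 and 195 CPM in refed control mice. Its lowest, median and highest levels were 41.8, 64.0 and 86.2 CPM in fasted DT mice and 105, 140 and 276 CPM in refed DT mice, so every refed mouse was above every fasted mouse in both. The log2 fold changes were 1.67 ± 0.23 (3.19-fold, edgeR adjusted p = 2.63e-05) in control and 1.37 ± 0.21 (2.58-fold, adjusted p = 7.01e-05) in DT mice. Pdia6, which encodes the isomerase P5 that works with BiP, was at 349, 357, 371, 388 and 508 CPM in fasted control mice and at 655, 769, 800, 839 and 841 CPM in refed control mice. In DT mice it ran from 402 to 621 CPM when fasted (median 429) and from 582 to 973 CPM when refed (median 796), an overlap made by fasted mouse 6 and refed mouse 13. It rose by 0.99 ± 0.15 and 0.77 ± 0.13 on the log2 scale in control and DT mice.

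Erp29, a relative of the isomerases without their active-site cysteines, ran from 30.6 to 46.1 CPM in fasted and 61.3 to 77.2 CPM in refed control mice, and from 30.0 to 52.1 and 62.5 to 81.6 CPM in DT mice. It rose by 0.90 ± 0.13 on the log2 scale in control and 0.82 ± 0.12 in DT mice, with no overlap in either. Pdia4 (ERp72) rose by 1.07 ± 0.20 and 0.60 ± 0.18, and Pdia5 by 0.86 ± 0.14 and 0.44 ± 0.12. Erp44, which retains oxidases and unassembled clients in the early secretory pathway, rose in control mice by 0.75 ± 0.16 and was at 0.36 ± 0.14 in DT mice. P4hb, the founding isomerase PDI, and Pdia3 (ERp57), which works with the lectins, had smaller rises in control mice of 0.47 ± 0.16 and 0.38 ± 0.13. Those 2 calls held in 15 and 6 of 22 fits with 1 library left out, so the Pdia3 call depends on which mice are kept, and both were lost with the acinar covariate. Creld1 rose in control mice by 0.39 ± 0.12. Txndc5 was called in the average (0.70 ± 0.22) and in neither comparison alone, and Txndc11 (0.50 ± 0.20 in the average) was not called.

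**Figure D3:**
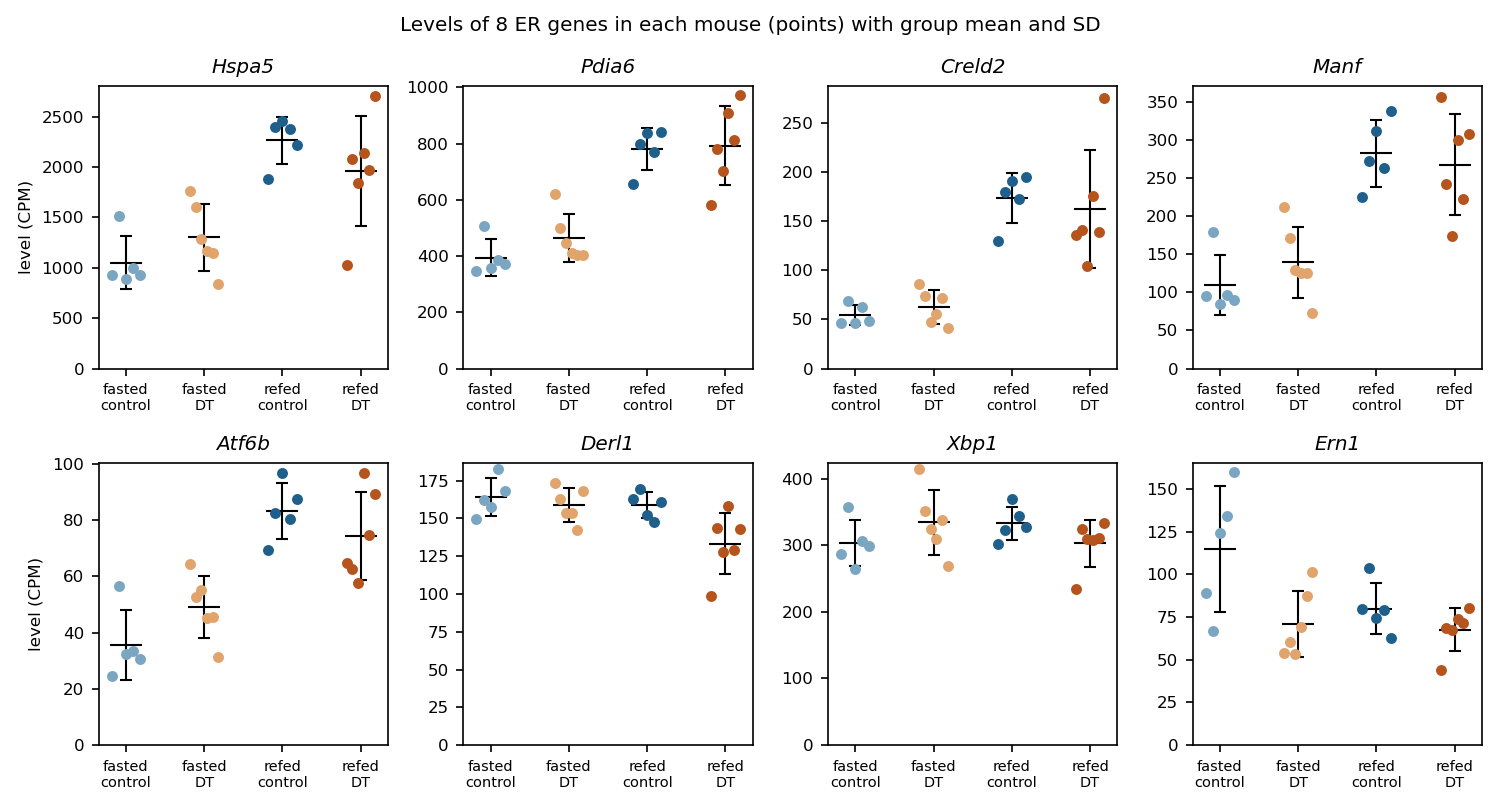
Level (y axis, CPM, from 0) of 8 members in every mouse of the 4 groups; each point is a mouse and the bar with whiskers is the group mean and SD. Every refed mouse is above every fasted mouse for Creld2 within control and within DT mice, while the ranges of Ern1 and Xbp1 overlap.

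Of the lectin system, 2 of 3 genes rose in control mice and 1 in DT mice. Calr, the soluble lectin calreticulin that also stores calcium, rose by 0.71 ± 0.13 on the log2 scale in control and 0.41 ± 0.12 in DT mice. Canx, its membrane-bound counterpart calnexin, ran from 446 to 546 CPM in fasted and 417 to 582 CPM in refed control mice and was at -0.02 ± 0.11 and 0.02 ± 0.10. Both lectin promoters hold an ERSE. Uggt1, which re-glucosylates glycoproteins that are not yet folded, was called in control mice at 0.28 ± 0.09, and that call held in 16 of 22 fits with 1 library left out and was lost with the acinar covariate.

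Prolyl isomerases and other lumen proteins gave the highest median of any role, 1.09 on the log2 scale in control and 0.88 in DT mice, and 3 of 4 rose in both. Manf (chromosome 9, 106888753 to 106891938), an ER-resident protein that is secreted under stress, was at 85.3, 90.2, 95.6, 96.4 and 179 CPM in fasted control mice and at 226, 264, 273, 312 and 337 CPM in refed control mice. Its lowest, median and highest levels in DT mice were 72.6, 127 and 211 CPM when fasted and 174, 271 and 356 CPM when refed. It rose by 1.37 ± 0.25 (edgeR adjusted p = 0.000406) and 0.94 ± 0.22 (adjusted p = 0.00387) on the log2 scale. Ppib (chromosome 9, 66060169 to 66066629), the prolyl isomerase cyclophilin B, was at 14.6, 14.9, 15.97, 16.5 and 23.5 CPM in fasted control mice and at 29.9, 31.2, 33.3, 38.2 and 38.5 CPM in refed control mice. In DT mice it ran from 18.3 to 31.8 CPM (median 22.9) when fasted and from 36.9 to 52.1 CPM (median 44.7) when refed, again without overlap. The log2 fold changes of Ppib, 1.00 ± 0.15 and 0.90 ± 0.14, differed by less than their standard errors. Sdf2l1, which joins Dnajb11 in a complex with BiP, rose by 1.18 ± 0.21 and 0.85 ± 0.19. Fkbp2, the remaining prolyl isomerase, was at 0.08 ± 0.19 and 0.23 ± 0.18 and was not called. Exons of Ppib and Erp29 overlap those of the opposite-strand genes Snx22 and Naa25 over 25.0% and 24.4% of their length, and since the strand setting of the counting is not given in the sources used here, their counts may include reads of those genes. Calr counts may share reads with its pseudogene Calr-ps.

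Of 10 genes of ER-associated degradation, 0 were called in control mice and 1, Derl1, was lower in DT mice. With 10.9% of all tested genes higher and 12.3% lower in control mice, a count of 0 among so few is near the background, and the difference from the chaperones was not tested. Their median log2 fold changes were 0.12 in control and 0.09 in DT mice, and single values ran from -0.27 ± 0.16 (Herpud1) to 0.64 ± 0.25 (Edem2) in control mice. Edem1, a mannosidase-like protein that hands misfolded glycoproteins to degradation, lay between 44.3 and 112 CPM in fasted control mice and between 117 and 140 CPM in refed ones. These ranges did not overlap, but with a log2 fold change of 0.52 ± 0.42 it was not called. Syvn1, which encodes the ubiquitin ligase Hrd1, was higher in the average of control and DT mice (0.29 ± 0.09, edgeR adjusted p = 0.0141). Sel1l, the partner of Hrd1, was at -0.06 ± 0.12 and 0.09 ± 0.11. Derl1 (chromosome 15, 57869502 to 57892418), a membrane protein of the export channel, ran from 142 to 173 CPM in fasted DT (median 159) and from 98.8 to 158 CPM in refed DT mice (median 136). Its fall of 0.25 on the log2 scale (SE 0.09, edgeR adjusted p = 0.0445) held in 4 of 22 fits with 1 library left out and in 1 of 9 other settings, and in control mice it was at -0.05 ± 0.10. The lowest Derl1 value, 98.8 CPM, was that of mouse 13. Derl2, Derl3, Edem1, Edem3 and Os9 were called in no comparison.

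Of the 6 sensors and regulators, Atf6b and Wfs1 rose in control and DT mice, and the 3 classical sensors and Xbp1 did not pass the test. Atf6b (chromosome 17, 34647146 to 34655074), a relative of ATF6 that is cleaved in the same way, was at 24.6, 30.5, 32.5, 33.4 and 56.7 CPM in fasted control mice and at 69.5, 80.4, 82.4, 87.5 and 96.8 CPM in refed control mice. In DT mice it ran from 31.4 to 64.2 CPM (median 49.2) when fasted and from 57.7 to 96.6 CPM (median 69.7) when refed. It rose by 1.23 ± 0.20 (2.35-fold, edgeR adjusted p = 0.000176) in control and by 0.60 ± 0.18 (adjusted p = 0.0204) in DT mice. Wfs1, the ER membrane protein wolframin that is abundant in β-cells, ran from 138 to 180 CPM in fasted and 210 to 267 CPM in refed control mice, and from 154 to 197 and 194 to 330 CPM in DT mice. Its rises were 0.63 ± 0.13 and 0.45 ± 0.12 on the log2 scale.

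Xbp1 (chromosome 11, 5520641 to 5525993) was at 265, 286, 299, 307 and 358 CPM in fasted control mice and at 301, 323, 328, 344 and 369 CPM in refed control mice, overlapping ranges with a log2 fold change of 0.14 ± 0.11. In DT mice it was at -0.14 ± 0.10, with medians of 331 CPM fasted and 310 CPM refed. Atf6 was at 0.13 ± 0.17 in control and -0.29 ± 0.16 in DT mice, with refed DT mouse 13 lowest of all at 45.0 CPM. Ern1 (chromosome 11, 106397620 to 106487796), which encodes IRE1α, was at 66.8, 88.9, 124, 134 and 160 CPM in fasted control mice and at 62.5, 74.6, 79.1, 79.9 and 104 CPM in refed control mice. Its log2 fold change of -0.52 ± 0.22 (edgeR adjusted p = 0.0893) in control mice did not pass, and without fasted control mouse 2 it did (-0.66 ± 0.21, edgeR adjusted p = 0.0254). Eif2ak3, which encodes PERK, ran from 5.0 to 67.9 CPM over all mice with a wide spread inside every group, and its standard error in control mice was 0.71 around a log2 fold change of 0.58.

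Genes of the same pathways outside the 43 members were counted against the share of all tested genes, of which 10.9% rose and 12.3% fell in control mice and 10.8% rose and 13.5% fell in DT mice. Of 27 genes for entry into the ER, signal peptide removal and N-glycan transfer, 18 rose and 0 fell in control mice and 15 rose and 0 fell in DT mice. Ssr2, a subunit of the translocon-associated complex, had means of 91.3 ± 26.0 CPM (SD, n = 5) in fasted and 220.2 ± 23.2 CPM (n = 5) in refed control mice, with log2 fold changes of 1.27 ± 0.20 in control and 0.70 ± 0.18 in DT mice. Dad1, a subunit of the oligosaccharyl transferase, rose by 1.04 ± 0.25 and 1.14 ± 0.23, and Sec61g, a subunit of the Sec61 channel, by 1.09 ± 0.18 and 0.70 ± 0.16. Of 23 other folding and oxidation genes, 4 rose and 1 fell in control and 3 rose and 1 fell in DT mice, counts near that background. Fkbp11 and Fkbp14, prolyl isomerases of the ER, rose by 1.66 ± 0.33 and 1.34 ± 0.28 in control mice, and Sil1, an exchange factor for BiP, fell by 0.41 (SE 0.09). Of 21 other degradation genes, 7 rose and 1 fell in control and 5 rose and 1 fell in DT mice. Vcp, the ATPase that pulls chains out of the membrane, rose in control mice by 0.82 ± 0.15 and was at 0.25 ± 0.13 in DT mice, and Erlin2 fell in both, by 0.59 (SE 0.15) and 0.75 (SE 0.14).

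The arm of the integrated stress response, which PERK and other kinases start and ATF4 and CHOP carry, was read from 17 genes. Of these, 2 rose and 7 fell in control mice, and 2 rose and 3 fell in DT mice, with median log2 fold changes of -0.40 and -0.18. Over all tested genes falls were also more frequent than rises, and the counts in DT mice are near that background. Trib3, a pseudokinase induced by ATF4 and CHOP, had means of 19.3 ± 15.3 CPM (SD, n = 5) in fasted and 1.30 ± 0.38 CPM (n = 5) in refed control mice, and it fell by 3.90 (SE 0.66) on the log2 scale in control and by 2.14 (SE 0.56) in DT mice. Sesn2, a stress-induced inhibitor of mTORC1 signalling, fell by 1.39 (SE 0.16) and 0.97 (SE 0.15). Chac1, a glutathione-degrading enzyme and ATF4 target, fell in control mice by 2.10 (SE 0.49) and was at -1.02 ± 0.43 in DT mice. Ddit3, which encodes CHOP, and Atf4 were not called, at -0.40 ± 0.28 and -0.21 ± 0.20 in control mice. The 2 that rose were Gadd45a, by 2.05 ± 0.21 in control mice, and Eif2s1, which encodes the initiation factor subunit that PERK phosphorylates, by 0.72 ± 0.12. Of 12 genes for processing of the response and relatives of ATF6, 5 rose in control mice, and in DT mice 5 rose and Mbtps1 fell. Among them Nfya and Nfyb, subunits of the factor NF-Y that binds the CCAAT part of the ERSE, rose by 1.31 ± 0.41 and 0.90 ± 0.16 in control mice, Nfya from a low level of 0.56 ± 0.29 CPM. Nfyc, another subunit of NF-Y, went the other way, at -0.34 ± 0.17 in control and -0.41 ± 0.15 in DT mice. It was called in neither and was lower in the average (-0.37 ± 0.11, edgeR adjusted p = 0.0131).

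Ablation of the other endocrine cells moved no member past the threshold. With edgeR, 0 of 43 were called between DT and control mice in the fasted state, where 0.0284% of all tested genes were, and 7 had an unadjusted p under 0.05 (4 higher, 3 lower, smallest adjusted p 0.285). In the refed state 0 were called, against 0.0356% of all tested genes, and 4 had an unadjusted p under 0.05: Ppib was higher, and Hyou1, Dnajc3 and Derl1 were lower. DESeq2 and limma voom called 0 members in either state. The median log2 fold change over members was 0.13 in fasted mice, with 29 of 43 above 0, and -0.13 in refed mice, with 36 of 43 below 0. These comparisons share their control mice with the feeding comparison in control mice, and their DT mice with that in DT mice, so the values are not independent of it. Averaged over feeding states, 0 members were called by edgeR and limma voom, against 0.206% of all tested genes by edgeR, and 8 had an unadjusted p under 0.05 (3 higher, 5 lower). Medians and unadjusted counts over all tested genes are not set beside those of the members. Whether a shift or an excess is particular to the members can therefore not be read from these values.

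Ppib came closest. Its medians were 15.97 CPM in fasted control against 22.9 CPM in fasted DT mice and 33.3 against 44.7 CPM after refeeding, and the averaged log2 fold change was 0.44 ± 0.10 (edgeR adjusted p = 0.0903). DESeq2 called it, with an adjusted p of 0.0126. Ern1 had medians of 124 CPM in fasted control and 64.7 CPM in fasted DT mice, where the ranges of 66.8 to 160 and 53.6 to 101 CPM overlapped, and 79.1 and 69.9 CPM in refed mice. Its averaged log2 fold change was -0.47 ± 0.15 (edgeR adjusted p = 0.194). Sel1l was at -0.29 ± 0.08 (adjusted p = 0.162 in edgeR) and Pdia5 at 0.27 ± 0.09 (adjusted p = 0.225 in edgeR).

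**Figure D4:**
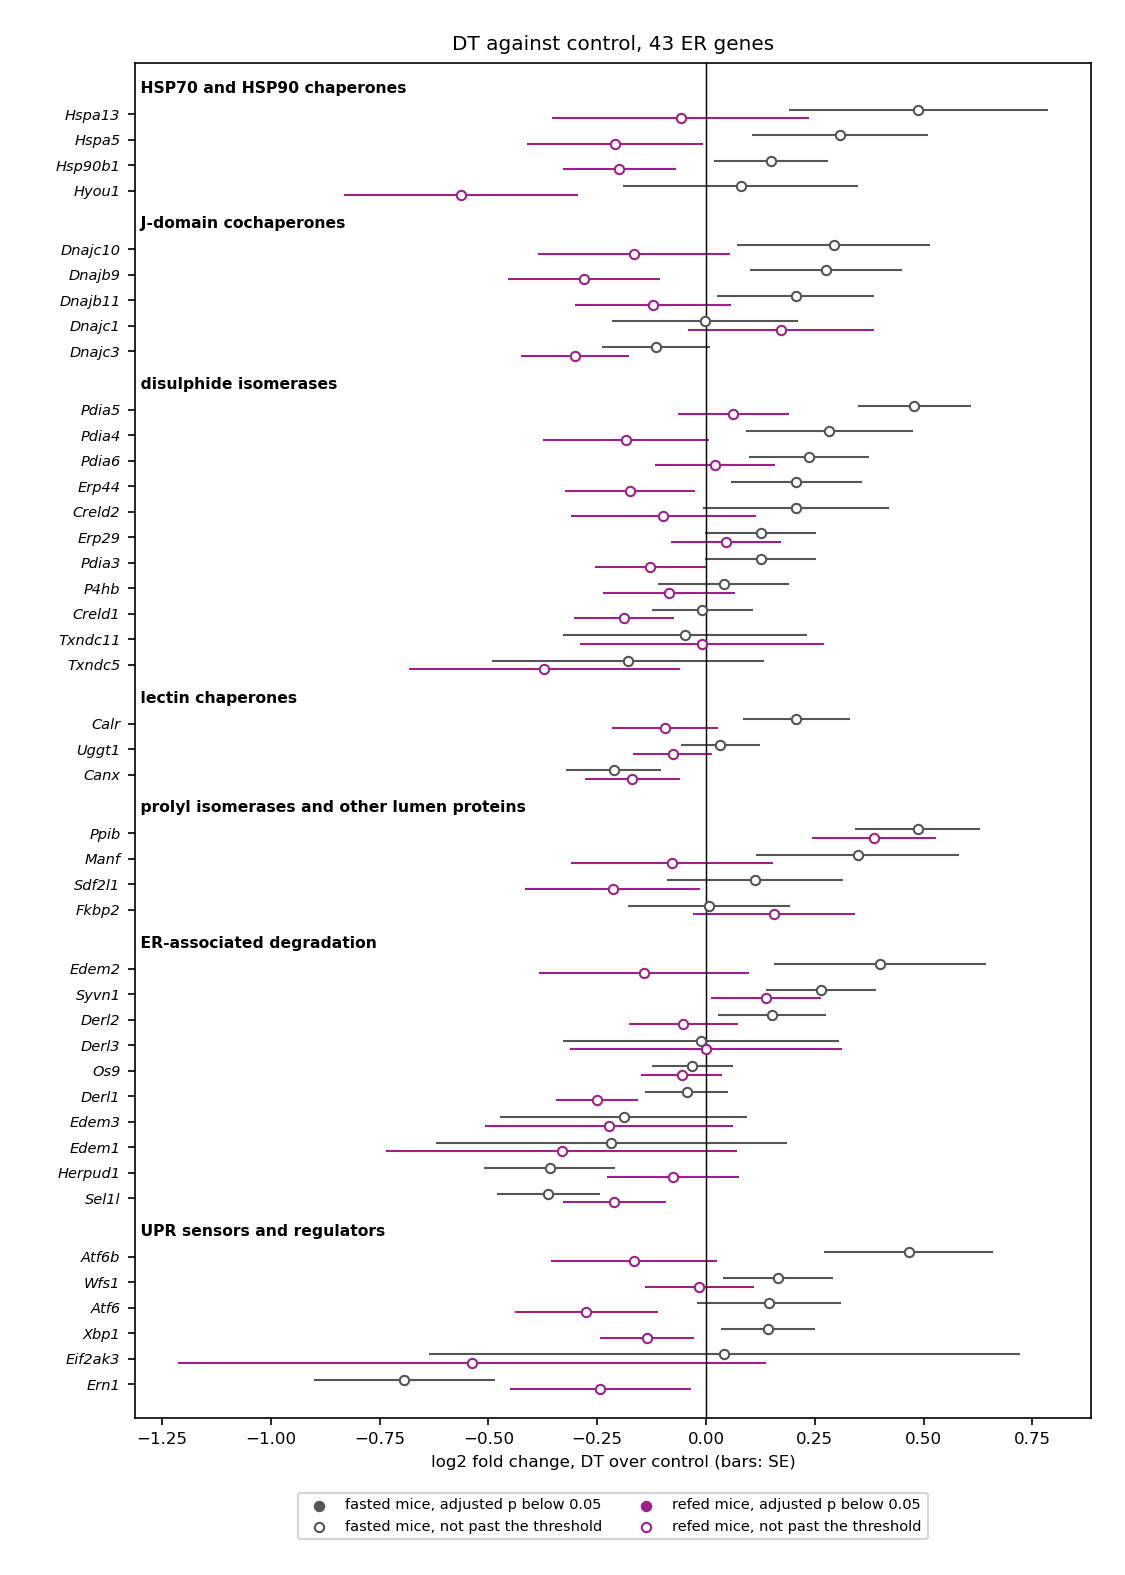
Log2 fold change of DT against control mice (x axis) for each of the 43 members, grouped by role, in fasted and in refed mice; points are edgeR estimates and bars ± 1 standard error. No member has an adjusted p under 0.05, with Ppib higher and Ern1 lower in both states.

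The signed log2 fold change on refeeding was higher in control than in DT mice for 35 of 43 members, but the test of the difference called 0. Derl1, with a larger fall in DT mice, is among the 35. The interaction of DT and feeding had a median log2 value of -0.21 over members (-0.02 over all tested genes). It was below 0 for the same 35 of 43. Shares of all tested genes below 0 or with an unadjusted p under 0.05 are not set beside the member counts. The test called 0.00711% of all tested genes. With edgeR 3 members had an unadjusted p under 0.05, all below 0, namely Atf6b (-0.63 ± 0.27), Dnajb9 (-0.56 ± 0.25) and Pdia5 (-0.42 ± 0.18), and the smallest adjusted p was 0.672. DESeq2 and limma voom called 0. For Hspa5 the difference was -0.52 ± 0.29 (edgeR adjusted p = 0.745). A larger response in control mice is therefore not shown for any member. Without refed DT mice 13 and 20 the median interaction was -0.19 and 0 members were called, while the number called between refed and fasted mice was 25 in control and 21 in DT mice.

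Summed over the 43 genes, the share of counts was also higher in refed control than in fasted control mice. Because insulin takes a large part of each library, the share was taken of the counts left without Ins1 and Ins2. In control mice it was 1.70% ± 0.14 (SD, n = 5) when fasted and 2.46% ± 0.11 (n = 5) when refed, and in DT mice it was 1.82% ± 0.22 (n = 6) and 2.24% ± 0.42 (n = 6). Refed control mice ran from 2.29% to 2.58%, all above the highest fasted control mouse at 1.91%, while refed DT mice ran from 1.61% (mouse 13) to 2.84% (mouse 20). Acinar cells also make much ER protein, so the libraries with the fewest acinar transcripts are given beside this. Fasted control mouse 3, fasted DT mouse 8 and refed DT mouse 20 had summed acinar levels of 201, 185 and 216 CPM, and their shares were 1.56%, 1.82% and 2.84% and their Hspa5 levels 888, 1283 and 2707 CPM. Among refed DT mice the highest acinar level, 46110 CPM in mouse 15, came with a share of 1.95%. Other libraries went the other way. In fasted control mice the highest acinar level (mouse 2, 16686 CPM) came with the highest share, 1.91%. Fasted DT mouse 6 likewise was highest of its group in both, at 24272 CPM and 2.13%. In refed control mice the lowest acinar level (mouse 12, 1789 CPM) came with the lowest share, 2.29%. Mouse 20 also had the highest summed immune markers of all libraries, 388 CPM. The part of either in the share was not tested. Acinar RNA was present in every library, since 19 of the 22 acinar markers had a count in each of them. The others, the low markers Amy2a5, Ptf1a and Rbpjl, were at 0 in 7, 9 and 1 libraries.

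**Figure D5:**
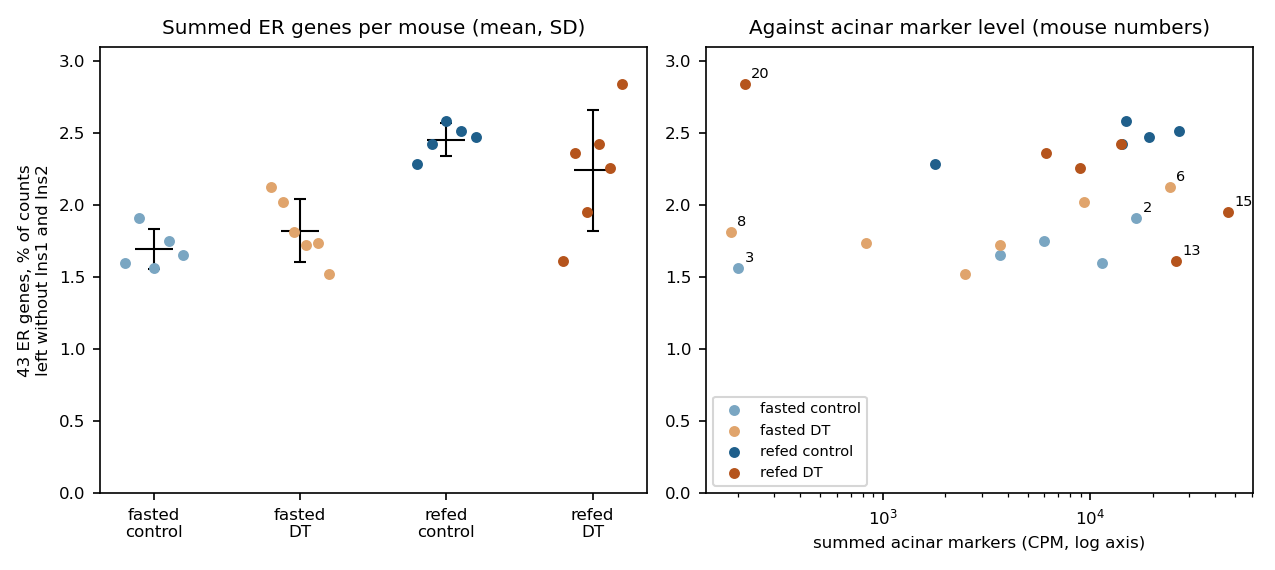
Left, summed share of the 43 members (y axis, % of counts left without Ins1 and Ins2) in each mouse by group, with the group mean and SD; right, the same share against the summed acinar markers (x axis, CPM, log axis), with mice 2, 3, 6, 8, 13, 15 and 20 labelled. Refed DT mouse 20 has the highest share, 2.84%, at one of the lowest acinar levels. In fasted control and fasted DT mice the highest share is at the highest acinar level of the group (mice 2 and 6).

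Within groups many members varied together. After removal of the group means, the median Pearson correlation of log2 levels over the 903 pairs of members was 0.273 (n = 22 mice), against -0.0015 over all pairs of tested genes. These correlations are descriptions, since all pairs share libraries and their depth. The highest were those of Txndc11 with Edem1 (0.952), Hspa5 with Pdia4 (0.941) and Dnajb11 with Erp44 (0.939), and the lowest was that of Hspa13 with Ern1 (-0.754). Txndc11 and Edem1 were low together in fasted DT mice 7 and 8 and refed DT mouse 16. Txndc11 was at 35.6, 18.3 and 37.7 CPM there, and Edem1 at 31.5, 15.8 and 37.5 CPM. The part of these libraries in the correlation was not tested.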

How the data were processed

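Each library came from the sorted β-cells of a different mouse, prepared with SMARTer and Nextera XT kits and read as single ends on a HiSeq4000, per the labels. The deposited values are read counts per gene symbol with 1 column per mouse, and the submitters' processing notes name STAR 2.7.2b, HTSeq 0.9.1, DESeq2 1.28.1 and GRCm38.p6. The strand setting and annotation release are not given in the sources used here.

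The counts were fitted here with edgeR 4.0.16 in R 4.3.3 (filterByExpr by group, TMM scaling, 1 coefficient per group over all 22 mice, robust quasi-likelihood F tests). P-values of 7 comparisons were adjusted by Benjamini-Hochberg over the 14064 genes tested, and the threshold was 0.05. Genes not tested comprised 24242 without a count and 14021 with low counts. Standard errors come from the F statistic, and CPM levels use TMM-scaled library sizes. Intervals cover differences between mice only as far as 5 or 6 per group show them, and reads carried no molecular identifiers.

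On data simulated for refed against fasted control mice (13773 genes), the test recovered 8 of 67 genes changed 1.5-fold, 31 of 67 changed 2-fold and 59 of 66 changed 4-fold, with 4 false calls. Alternatives were DESeq2 1.42.0, limma 3.58.1 voom, other scalings and filters, an acinar covariate and leaving out libraries.

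The members and lists were chosen with earlier results of these data known. All members are described by role. Values per group are given for members past the threshold with the smallest p in the averaged feeding effect, for up to 5 with the smallest p in the averaged DT effect and in the interaction, and always for BiP, GRP94, the sensors, Wfs1 and Derl1. Genes outside the members come from the pathway lists and passed the threshold or are named as not called. Promoters are RefSeq sequences, and all 43 members matched RefSeq positions. Protein sequences were not used here.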

Additional observations from a re-analysis of the deposited data

Results flagged for a closer look

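In 11 of 96 groups of values (23 named genes and the summed share, in 4 groups each), the highest or lowest mouse stood farther from its nearest neighbour than Dixon's 95% critical value. Chance flags about 1 group in 20, and genes of the same mouse are not independent of each other.

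Fasted control mouse 2 accounted for 7 of them and was the highest of its group each time. Hspa5 was at 1517 CPM with the next mouse at 998 CPM, Manf at 179 against 96.4 CPM, Calr at 414 against 322 CPM, and Pdia6 at 508 against 388 CPM. Dnajb11 was at 110 against 68.2 CPM, Atf6b at 56.7 against 33.4 CPM and Ppib at 23.5 against 16.5 CPM. That mouse also had the highest summed acinar level of its group, 16686 CPM, whose part in these values was not tested. Without it, 26 members were called between refed and fasted control mice (25 higher and 1 lower, Ern1), against 23 with it.

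Refed control mouse 12 was low for Dnajb11, at 138 CPM with the next mouse at 162 CPM. Refed DT mouse 13, the library with 69.4% insulin counts, was low for 3 sensors and regulators. Ern1 was at 43.8 CPM with the next mouse at 67.3 CPM, Xbp1 at 234 against 308 CPM and Atf6 at 45.0 against 84.8 CPM. For Wfs1, of the same role, that mouse was instead the highest of its group, at 330 against 274 CPM, and was not flagged.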

How the results depend on the processing

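The numbers of members called on refeeding stayed within 1.5 times the reported ones in every alternative run: 20 to 28 in control mice (23 reported), 14 to 21 in DT mice (17 reported) and 26 to 28 in the average (26 reported). Leaving out 1 library at a time gave 18 to 26, 13 to 22 and 25 to 29. Both DT comparisons and the interaction stayed at 0 members in every alternative, leaving out single libraries included (0 to 0). The averaged DT effect, with 0 members reported, gave 1 with DESeq2 and 0 to 1 with single libraries left out. The 1 came without fasted control mouse 2 and was Ppib in both cases (log2 fold changes 0.45 and 0.50). No direction reversed. No paired analysis was possible because each mouse number occurs only once. In the simulation, which was not limited to the members, most changes of 1.5-fold were missed. Some members, Uggt1 and Creld1 among them, were called at smaller estimates, and the share missed among members was not simulated. Members without a call are not shown to be unchanged, and their standard errors give the spread of each estimate. The labels name no batch, so none could be separated from the groups.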
